A study of Mus musculus with 25 samples.

Results

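The genes for the islet hormones insulin (Ins1 and Ins2), amylin (Iapp) and glucagon (Gcg) were followed through the expression and chromatin accessibility profiles of the mouse cell lines αTC1 and βTC6. The members were taken by name. They were the 4 of 24439 genes in the RNA-seq table that carry these symbols, and the 41 of 65053 consensus ATAC-seq peaks whose nearest gene was one of them. Ins1 had 25 of these peaks, Gcg 11, Iapp 4 and Ins2 1. All 4 genes passed the expression filter of the RNA-seq test (FPKM of at least 1 in every replicate of either line).

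αTC1 is alpha TC1 clone 6 and βTC6 is beta-TC-6. Both are lines made from pancreatic islet tumours of transgenic mice, in which the SV40 T antigen was driven by the glucagon gene's promoter (αTC1) or an insulin promoter (βTC6). Neither line was treated. They were grown in media that differed in glucose, serum and supplements, so the line and its medium cannot be told apart. RNA-seq was available for 3 replicates of each line, and ATAC-seq for 5 replicates of each line and for 9 mixtures with 10% to 90% αTC1 cells in steps of 10. Each line is a single line, and no source used here says that replicates came from separate cultures, so p-values measure the spread between these libraries only.

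Insulin is made in beta cells, lowers blood glucose and is encoded in mice by a pair of genes, of which Ins1 arose from Ins2 by retroposition. Amylin is stored and released together with insulin. Glucagon is made in alpha cells and raises blood glucose, and its precursor also yields glucagon-like peptides when it is cut by another convertase. Homeodomain factors bind TAAT-containing A elements and basic helix-loop-helix factors bind E-boxes (CANNTG) in the promoters of these genes.

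The sequences just upstream of the 4 genes are shown because each lies inside a peak that was called between the lines. They run from 250 to 21 bases before the start site as the deposited peak distances place it, on mm9 and on the strand of the gene. Capitals mark each TAAT (either strand) and each CANNTG.
Ins1, chr19:52338563-52338792 (+): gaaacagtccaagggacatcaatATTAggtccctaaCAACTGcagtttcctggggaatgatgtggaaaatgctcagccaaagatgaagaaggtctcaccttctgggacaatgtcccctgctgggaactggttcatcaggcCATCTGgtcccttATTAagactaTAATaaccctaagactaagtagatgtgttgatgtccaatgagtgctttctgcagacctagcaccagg
Ins2, chr7:149865633-149865862 (−): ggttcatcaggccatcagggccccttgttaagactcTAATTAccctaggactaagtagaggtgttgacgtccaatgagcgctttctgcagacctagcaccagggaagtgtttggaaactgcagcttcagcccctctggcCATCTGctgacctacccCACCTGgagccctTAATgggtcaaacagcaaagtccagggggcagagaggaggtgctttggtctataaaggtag
Iapp, chr6:142246694-142246923 (+): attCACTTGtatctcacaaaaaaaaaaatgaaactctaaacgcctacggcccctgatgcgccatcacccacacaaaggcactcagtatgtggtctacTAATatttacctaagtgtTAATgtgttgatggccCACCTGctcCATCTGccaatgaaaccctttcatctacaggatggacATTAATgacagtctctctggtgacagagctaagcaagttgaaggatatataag
Gcg, chr2:62321730-62321959 (−): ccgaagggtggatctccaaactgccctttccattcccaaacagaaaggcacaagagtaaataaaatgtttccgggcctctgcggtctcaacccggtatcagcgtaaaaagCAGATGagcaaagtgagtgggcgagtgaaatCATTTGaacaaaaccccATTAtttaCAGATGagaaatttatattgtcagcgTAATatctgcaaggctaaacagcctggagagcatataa
All 230 bases of each window lay inside a peak of that gene. TAAT had 3 matches in Ins1, 3 in Ins2, 4 in Iapp and 2 in Gcg, and 53.5% of 32851 RefSeq mouse promoters (GRCm38.p6, the same window) hold a match. CANNTG had 2 matches in Ins1, 2 in Ins2, 3 in Iapp and 3 in Gcg, against 63.5% of promoters with a match. Each window held CATCTG on either strand, a form of CANNTG that 13.4% of promoters hold. Counted from the start site, it began at base −110 in Ins1 and Iapp, at −111 in Ins2 and at −140 and −84 in Gcg. TATAAA, also sought on either strand, was matched in Ins2 (at −31) and, on the opposite strand only, in Gcg (at −73), and 11.8% of promoters hold it. TGACGTCA (1.28% of promoters) and TGTTTAC (2.91%) had no match in these windows, and TGCTGA (14.9%) had a match in Ins2 alone. The Ins1 and Ins2 windows share a stretch of 103 aligned columns with 93 identical bases, from base −122 to −21 in Ins1 and from −250 to −148 in Ins2. The annotated Ins1 start therefore lies 128 bases nearer to this shared stretch than the Ins2 start does. The CATCTG at −110 in Ins1 lies inside the stretch and that at −111 in Ins2 outside it, so these are not aligned positions. The Ins2 TGCTGA (at −107) and TATAAA (at −31) also lie between the stretch and the Ins2 start. In Ins1 the window ends with the stretch, so their absence from it does not show that the Ins1 gene lacks them.

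Distal sequence is shown for the Ins1 and Gcg peaks with the largest difference in each direction and for an Iapp peak whose log2 fold change had the other sign than that of its gene. Each is the central 200 bases of the peak, with the same capitals.
Ins1 peak at −11771 bp, chr19:52326942-52327141 (+): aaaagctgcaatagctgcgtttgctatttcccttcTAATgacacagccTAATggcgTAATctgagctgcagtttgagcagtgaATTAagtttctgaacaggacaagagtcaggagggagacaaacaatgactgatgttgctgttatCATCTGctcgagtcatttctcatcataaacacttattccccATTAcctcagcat
Gcg peak at +9998 bp, chr2:62311613-62311812 (−): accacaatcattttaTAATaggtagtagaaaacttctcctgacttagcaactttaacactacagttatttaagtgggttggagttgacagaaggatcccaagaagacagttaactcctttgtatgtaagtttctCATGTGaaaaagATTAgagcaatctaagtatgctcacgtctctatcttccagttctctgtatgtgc
Iapp peak at −8585 bp, chr6:142238260-142238459 (+): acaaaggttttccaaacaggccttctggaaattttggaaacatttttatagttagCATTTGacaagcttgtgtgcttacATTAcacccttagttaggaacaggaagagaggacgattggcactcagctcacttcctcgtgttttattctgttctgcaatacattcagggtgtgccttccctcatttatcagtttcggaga
The Ins1 peak held 5 TAAT matches and a CATCTG, the Gcg peak 2 TAAT matches and the Iapp peak 1. Among the central 200 bases of all 65053 peaks, 60.5% hold TAAT, 69.2% hold CANNTG and 23.2% hold CATCTG.

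RNA-seq libraries held 21795367 to 25876765 expected counts outside the ERCC spike-ins, and ATAC-seq libraries held 4397851 to 10374903 reads in consensus peaks. Defining markers followed the labels. Of 6 alpha cell markers tested, 5 were higher in αTC1 (Pou3f4, Irx2 and Irx1 among them) and Ttr was not called. Of 6 beta cell markers tested, 5 were higher in βTC6 (Pdx1, Mafa, Slc2a2 and G6pc2 by the most) and Slc30a8 was not called, while Ucn3, a marker of mature beta cells, was below the filter in both lines (0 FPKM in αTC1, 0.827 in βTC6). Acinar markers were near 0, with 6 markers summing to at most 0.17 FPKM in any library. Of the other marker lists, 3 endothelial genes summed to at most 0.29 FPKM and 3 blood cell genes to at most 2.23. Among 4 stromal genes, Col3a1 had no count in any library and Col1a2 was higher in αTC1 (1.58 against 0.133 FPKM), and of 3 duct genes Krt7 was higher in βTC6 (35.7 against 1.42) and Sox9 in αTC1 (4.24 against 0).

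Both insulin genes were expressed in βTC6 and nearly absent from αTC1. Expression is given as FPKM, a fragment count scaled to transcript length and library size, and was tested with edgeR's quasi-likelihood test, and a gene was called where FDR was under 5% and the log2 fold change (βTC6 over αTC1) passed 2 in either direction. Under this rule 10.2% of 12195 tested genes were called higher in βTC6 and 4.08% higher in αTC1, and of the 4 hormone genes 3 were called higher in βTC6 and 1 in αTC1.
Ins2 (ENSMUSG00000000215, chr7:149864561-149885415 on mm9), the gene shared with other mammals, stood at 30954, 35748 and 23541 FPKM in βTC6 replicates 1 to 3 and at 0.64, 0.19 and 0.19 FPKM in αTC1. The groups did not overlap, and the αTC1 values rest on 6, 1 and 2 expected counts. The log2 fold change was 16.64 (SE 0.40, edgeR adjusted p = 4.1e-09), and the ratio of normalised counts was 106682-fold, with an exact Poisson 95% interval of 56198 to 233306 that covers counting error only. The αTC1 level leaned on replicate 1, and the log2 fold change was 17.64 without it.
Ins1 (ENSMUSG00000035804, chr19:52338813-52339946) stood at 2389, 2013 and 1599 FPKM in βTC6 and had no count in any αTC1 library. Against a floor of 3 counts per library, taken in the αTC1 library with the smallest normalised total (0.134 CPM), it was at least 15139-fold higher in βTC6 (edgeR adjusted p = 5.1e-08). Its fitted log2 fold change depends on the prior count and is no bound.

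The insulin genes differed in level as well. In βTC6, Ins2 exceeded Ins1 in each replicate, by 12.96, 17.8 and 14.7 times on the FPKM scale (mean 15.1 ± 2.43, SD, n = 3). The gap was smaller in normalised counts, which are not scaled to transcript length. Their βTC6 means were 13283 CPM for Ins2 and 2035 CPM for Ins1. The size of the FPKM ratio therefore also depends on the transcript lengths used. The coding sequences compared are 327 and 333 bases long and are identical at 90.7% of 333 aligned columns, but only 6.55% of the 25-base windows of the Ins1 transcript, 0.724% of its 50-base windows and 0% of its 100-base windows also occur in an Ins2 transcript. Trimmed reads under 50 bases had been discarded. RSEM divides the reads that fit both genes between them, and the Ins2 locus has 8 annotated transcripts against 1 for Ins1.

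Iapp (ENSMUSG00000041681, chr6:142246943-142252481), which encodes amylin, followed the insulin genes. It stood at 10407, 13162 and 8725 FPKM in βTC6 and at 0.67, 0.91 and 0.20 FPKM in αTC1, from 12, 18 and 4 counts. The log2 fold change was 14.20 (SE 0.38, edgeR adjusted p = 7.6e-09), and the ratio of normalised counts was 19018-fold (exact Poisson 95% interval 13610 to 27462). Ins2 exceeded Iapp by 2.97, 2.72 and 2.70 times on the FPKM scale in the 3 βTC6 replicates. The gap was again smaller in normalised counts, with βTC6 means of 13283 CPM for Ins2 and 8945 CPM for Iapp. The FPKM ratio varied less between replicates (2.80 ± 0.15, SD, n = 3) than the level of either gene, whose coefficients of variation were 20.4% and 20.8%. Iapp lies inside Slco1a5, an organic anion transporter gene on the opposite strand that stood at 1.09 FPKM in βTC6 and 0 in αTC1.

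Gcg (ENSMUSG00000000394, chr2:62312587-62321707) was the only member higher in αTC1, and the only one with a sizeable level in both lines. It stood at 12113, 12267 and 14406 FPKM in αTC1 and at 249.2, 266.9 and 172.2 FPKM in βTC6. The lowest αTC1 replicate was far above the highest βTC6 replicate. The log2 fold change was −5.76 (SE 0.23, edgeR adjusted p = 6.4e-08), a ratio of 54.0 in normalised counts. The βTC6 level rested on 6342, 6936 and 4152 counts, so it was far above the floor of 3 counts per library. In bulk samples a small number of cells with much Gcg mRNA and many cells with little cannot be told apart. The βTC6 mean was 1.77% of the αTC1 mean for Gcg. Among alpha cell markers the same percentage was 0.818 for Pou3f4, 7.46 for Irx2, 8.2 for Irx1 and 134 for Ttr.

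**Figure D1:**
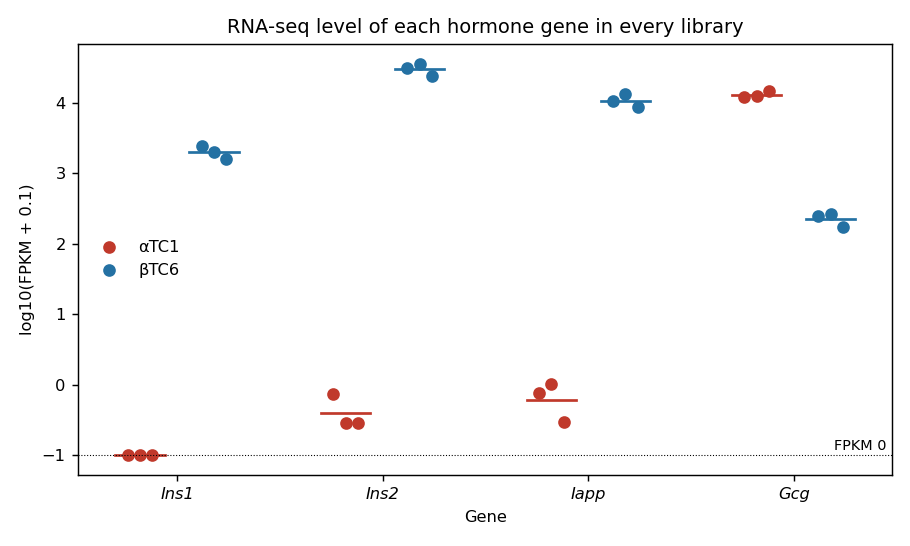
RNA-seq level of the hormone genes in each of the 6 libraries, as log10(FPKM + 0.1), with red points for αTC1, blue points for βTC6 and bars at the group means. Ins1, Ins2 and Iapp sit at 1599 FPKM or above in βTC6 and at 0.91 FPKM or below in αTC1, whereas Gcg sits at 12113 FPKM or above in αTC1 and between 172.2 and 266.9 FPKM in βTC6.

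The hormone transcripts were among the most abundant of their lines. By FPKM, Ins2 ranked 1 and Iapp ranked 2 in every βTC6 replicate, followed by mt-Co1, a mitochondrial cytochrome oxidase subunit (6874 ± 301 FPKM, SD, n = 3). Ins1 ranked 11, 18 and 21, and by its mean it stood between Eef1a1, a translation elongation factor (2054 ± 103), and Gm10123 (1879 ± 229), neither of which differed from it beyond the spread of Ins1 (2000 ± 395). In αTC1, Gcg ranked 3, 3 and 2, level with mt-Co2 (13039 ± 341 against 12929 ± 1282 for Gcg) and above mt-Co3 (7767 ± 838). In βTC6, Gcg ranked 264, 271 and 417.
The 4 genes took 2.44%, 2.83% and 1.92% of the expected counts of the βTC6 replicates, of which Gcg took 0.017% to 0.027%. In αTC1 they took 1.21%, 1.23% and 1.44%, nearly all of it Gcg. Replicate 3 of βTC6 had the lowest level of all 4 genes, and its Gcg was 1.55 times below that of replicate 2. With the member genes left out of the scaling, the count of called genes was the same, 1245 and 498.

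The genes with the most similar profile over the 6 libraries were, by Pearson r of log2(CPM + 1), Tspyl5, Cachd1 and Slc16a12 for Ins1 (r = 0.99999 to 0.99995), Cdh8, Gcnt1 and Synpr for Ins2 (0.99998 to 0.9999), Nfix, P2ry1 and Nxn for Iapp (0.99991 to 0.99986) and Usp19, Rad18 and Bivm for Gcg (0.99998 to 0.99991). These values describe the contrast of the lines, since 1310 of 12194 other genes had r above 0.99 with Ins1 and 681 had it with Gcg. No p-value is given for them.

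Factors known to act on hormone genes were split between the lines. Of 20 regulators, 19 were tested, 9 were called higher in βTC6, 3 higher in αTC1 and 7 were not called, and their median log2 fold change was 1.57 (that of Pax6) against 0.0094 over all tested genes. Higher in βTC6 were Pdx1, the homeodomain activator of the insulin genes (111.4 ± 8.07 FPKM against 0 in αTC1, SD, n = 3), the caudal factor Cdx2 (5.64 ± 0.828 against 0), the nuclear receptor Hnf4a (11.9 ± 3.74 against 0.003) and Pax4, a paired-domain factor of beta cell development (2.56 ± 0.137 against 0). Among those higher in αTC1 was Pou3f4, a POU-domain factor of alpha cells (50.5 ± 2.49 FPKM against 0.413 ± 0.029 in βTC6). Among those not called, Neurod1 (log2 fold change −0.11, SE 0.09), Nkx2-2 (0.06, SE 0.08) and Rfx6 (0.08, SE 0.12) had adjusted p-values of 0.27, 0.52 and 0.55 by edgeR.

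Prohormone convertases cut the precursors into hormones. Over all tested genes, 10.2% were called higher in βTC6 and 4.08% higher in αTC1. Of 6 processing genes, 2 were called higher in βTC6 and none higher in αTC1. They were Pcsk1, the convertase that proinsulin processing uses (84.8 ± 38.3 FPKM in βTC6 against 0.153 ± 0.095 in αTC1, log2 fold change 9.13, SE 0.53), and Cpe, carboxypeptidase E (1517 ± 356 against 252.1 ± 6.58, log2 fold change 2.65, SE 0.18). Pcsk2, the convertase that releases glucagon, stood at 783.5 ± 40.9 FPKM in αTC1 and 475.1 ± 80.5 in βTC6 and was not called, with a log2 fold change of −0.66 (SE 0.14). Pam stood at 378.7 ± 16.3 FPKM in αTC1 and 108.8 ± 33.3 in βTC6. Its log2 fold change of −1.80 (SE 0.20, edgeR adjusted p = 4.2e-05) was under the fold threshold. Of the 4 processing genes not called, 3 passed the FDR. Of 8 granule proteins, 2 were called higher in βTC6 (Chgb, log2 fold change 3.05, SE 0.22, and Scg3, 2.63, SE 0.11) and none in αTC1, with a median of 1.27. Of the 6 granule genes not called, 5 passed the FDR.
Of 11 receptor and clearance genes, 9 were tested, 5 were higher in βTC6 and 1 in αTC1. Higher in βTC6 were the receptor of glucagon-like peptide 1, Glp1r (63.0 ± 13.2 FPKM against 0), Dpp4, a peptidase that clears incretins (10.1 ± 3.33 against 0.003), Igf1r (5.35 ± 0.997 against 0.013) and Ramp1, a subunit of amylin and related receptors (2.68 ± 0.596 against 0.02), besides Gipr. Higher in αTC1 was Calcr, the calcitonin receptor that forms amylin receptors with the RAMP proteins (11.2 ± 3.15 against 0.03). The glucagon receptor Gcgr was below the filter, with at most 3 counts in a library, and Insr did not pass (log2 fold change 0.02, SE 0.09, edgeR adjusted p = 0.87).
Of 4 other islet hormones, 2 were tested and both were higher in βTC6. Sst, somatostatin, stood at 255.6 ± 61.9 FPKM in βTC6 against 0 in αTC1. Ppy, pancreatic polypeptide, stood at 26.0 ± 23.7 against 0.093 ± 0.006. Ghrl and Pyy were below the filter in both lines.

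The genes beside the hormone genes varied. Within 100 kb of the Ins2 start lies Igf2, an insulin-like growth factor gene 12891 bp downstream, which stood at 415.4 ± 39.2 FPKM in βTC6 and 0.067 ± 0.050 in αTC1 (log2 fold change 13.48, SE 0.21), and Igf2as, at 30.0 ± 6.08 against 0.01 ± 0.01. RSEM was run with default parameters, so reads of Igf2 and its antisense gene may not have been told apart by strand. Near Gcg, Dpp4 began 71421 bp downstream and was higher in βTC6, against the direction of Gcg, and Fap, at −19772 bp, stood at 0.027 FPKM in αTC1 and 0 in βTC6. Gm13564 stood at 0 in αTC1 and 0.127 FPKM in βTC6, and Gm13565 at 0 in both. Near Iapp, Slco1a6 (at −89902 bp) was higher in βTC6 (34.1 ± 1.48 against 5.51 ± 0.39 FPKM, log2 fold change 3.03, SE 0.14), while Golt1b, Recql and Pyroxd1 were not called, with log2 fold changes of −1.10, −0.92 and −0.28 (SE 0.13, 0.10 and 0.12). No other gene starts within 100 kb of Ins1, the only annotated gene in the 1053 kb that its peaks span.

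Chromatin over the start sites differed in the direction of expression for all 4 genes. ATAC-seq marks DNA that a transposase can enter, and each value is a read count in a peak scaled by TMM to a common library size. A value worth 1 read (0.094 to 0.205 across libraries) is the lowest in the table, so 1 read and none cannot be told apart. Peaks were tested with limma on log2(value + 1) and called by the same thresholds. Of all 65053 peaks, 12.9% were called higher in βTC6 and 5.38% higher in αTC1, and of the 14581 peaks within 2 kb of a start site 5.51% and 1.41%. The replicates of the lines did not overlap for 63.9% of all peaks, with βTC6 above αTC1 for 33.7% and αTC1 above βTC6 for 30.2%. The log2 fold changes of limma are on the log2(value + 1) scale, which understates the change of low peaks.
The Ins1 peak centred 9 bp upstream (chr19:52338371-52339237, over the first exon) had values of 48.7, 49.2, 45.7, 41.7 and 70.9 in βTC6 replicates 1 to 5 and of 2.52, 2.25, 1.35, 1.64 and 1.16 in αTC1. The lines did not overlap, and replicate 5 of βTC6 stood above the other 4. The log2 fold change was 4.23 (SE 0.17, limma adjusted p = 8.6e-14).
The only Ins2 peak, centred 210 bp upstream (chr7:149865420-149866225, over the promoter and first exon), had values of 24.7, 20.9, 33.6, 31.8 and 19.8 in βTC6 and of 1.12, 1.40, 2.55, 0.819 and 1.16 in αTC1. Again no replicate of the lines overlapped, and the log2 fold change was 3.50 (SE 0.21, limma adjusted p = 1.8e-11). The Ins2 peak was thus smaller than that of Ins1 in βTC6 (26.2 ± 6.28 against 51.2 ± 11.4, SD, n = 5), in contrast to the order of their FPKM, although values of peaks that differ in width are not levels per length.
The Iapp peak at −91 bp (chr6:142246432-142247275) had values of 45.3, 43.7, 40.8, 42.5 and 51.4 in βTC6 and of 4.06, 5.34, 4.81, 3.28 and 5.20 in αTC1. Its αTC1 signal was low but rested on up to 38 reads in a library. The log2 fold change was 3.06 (SE 0.13, limma adjusted p = 2.0e-13).
The Gcg peak at −246 bp (chr2:62321417-62322494) had values of 158.0, 155.1, 151.2, 155.3 and 148.1 in αTC1 and of 26.4, 31.2, 25.7, 32.2 and 23.3 in βTC6. It was the tallest peak of the set, with 0.331% of all peaks having a higher mean in αTC1, and it kept a clear signal of 27.8 ± 3.81 in βTC6. The log2 fold change was −2.44 (SE 0.09, limma adjusted p = 3.0e-14), a ratio of means of 5.53.

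**Figure D2:**
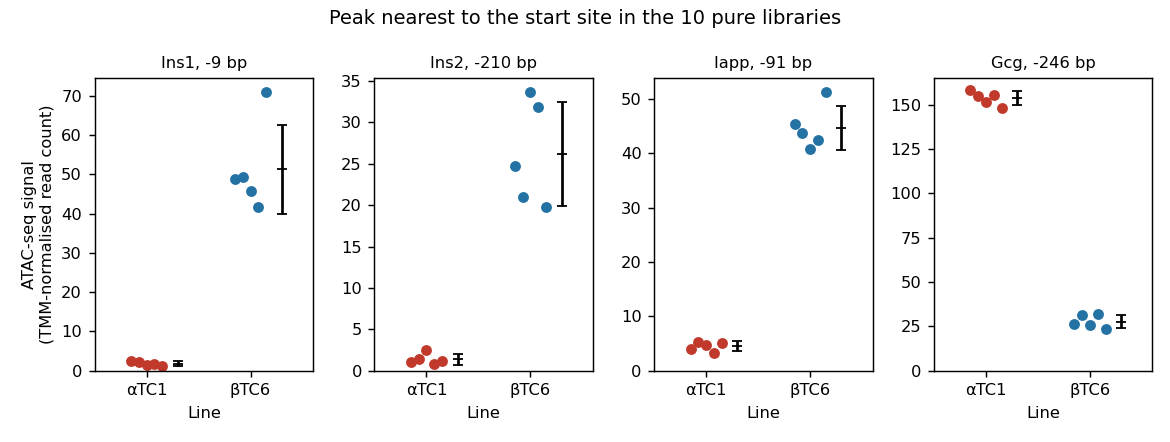
ATAC-seq signal (TMM-normalised read count) of the peak nearest to each start site in the 5 replicates of αTC1 (red) and βTC6 (blue), with black bars for the mean and SD and a y axis from 0 in each panel. Ins1, Ins2 and Iapp are high in βTC6 alone, and Gcg is high in αTC1 with a mean of 27.8 left in βTC6.

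Ins1 stood in a wide stretch of peaks with one direction. Its 25 peaks spanned 1053 kb of chromosome 19, from 781859 bp upstream to 270671 bp downstream, of which 24 overlapped no annotated gene. All 25 had a positive log2 fold change (1.30 to 4.70, median 1.92), as had 50.2% of all peaks and 54.4% of those on chromosome 19. In 24 of them every βTC6 replicate was above every αTC1 replicate, which held for 33.7% of all peaks, and 12 of 25 (48.0%) were called higher in βTC6 against 12.9% of all peaks. The other 13 passed the FDR but not the fold threshold. Among 293 genes with at least 20 peaks the median share called higher in βTC6 was 18.5%, and 21 of them, Ins1 included, had a share of at least 48%. The median log2 fold change was 0.001 over all peaks, 0.096 over chromosome 19 and 0.71 over the 221 peaks of other genes within 5000 kb of Ins1, of which 48 were called higher in βTC6 and 7 higher in αTC1. Peaks of other genes to either side also had positive log2 fold changes, at 2.48 for the next peak upstream (nearest gene Sorcs1) and at 1.28 for the next downstream (AA387883).
The largest difference of the set was at −11771 bp (chr19:52326557-52327526), where βTC6 had values of 49.0, 53.1, 50.5, 45.4 and 64.5 and αTC1 had 1.68, 1.12, 1.80, 0.546 and 0.433. This intergenic peak, whose central bases hold the 5 TAAT matches printed before, differed in height from the start-site peak by less than their spread in βTC6 (52.5 ± 7.27 and 51.2 ± 11.4, SD, n = 5) and had a log2 fold change of 4.70 (SE 0.19, limma adjusted p = 8.9e-14). Among the other distal Ins1 peaks, the largest log2 fold changes were at −215678 bp, at 28.1 ± 6.29 against 1.75 ± 0.994 (log2 fold change 3.46, SE 0.23), and at −70406 bp, at 11.99 ± 1.80 against 0.818 ± 0.438 (2.86, SE 0.22). The remaining 21 peaks had means of 2.87 to 18.3 in βTC6 and of 0.418 to 3.22 in αTC1, and the 8 of them that were called had log2 fold changes of 2.18 to 2.48. Only the peak at +19402 bp overlapped between the lines. Leaving out a library changed no called Ins1 peak, and added up to 2 peaks to the 12, but 8 were called with quantile normalisation and 3 with a pseudocount of 5.

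Iapp had 4 peaks within 8585 bp of its start, and 3 of them were called higher in βTC6. Besides the start-site peak these were the peak at +6846 bp (16.4 ± 2.88 against 1.48 ± 0.590, log2 fold change 2.83, SE 0.22) and that at +7768 bp (10.7 ± 2.26 against 1.43 ± 0.711, 2.29, SE 0.24), both in introns of Slco1a5 downstream of Iapp. The call at +7768 bp was lost with quantile normalisation (log2 fold change 1.87). With a pseudocount of 5 only the start-site peak was called, with 1.72 at +6846 bp and 1.28 at +7768 bp. The peak at −8585 bp was open in both lines, with values of 105.0, 99.3, 98.9, 99.9 and 110.6 in αTC1 against 65.8, 63.2, 58.8, 70.8 and 66.1 in βTC6. No replicate overlapped, and the log2 fold change of −0.66 (SE 0.08, limma adjusted p = 2.9e-07) was below the fold threshold and close to the median of −0.79 over the 4291 peaks of chromosome 6. With quantile normalisation it shrank to −0.17 (limma adjusted p = 0.047). A further peak at −16334 bp from the Iapp start, annotated to Slco1a5, stood at 67.3 in βTC6 and 3.49 in αTC1 on average (log2 fold change 3.92, limma adjusted p = 2.0e-15).

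Around Ins2 the only other peaks within 100 kb were 19020 and 20241 bp downstream, annotated to Igf2 and Igf2os. Both were called higher in βTC6 (log2 fold changes 2.71 and 3.47, limma adjusted p = 7.5e-10 and 1.4e-11), whereas the median over the 3276 peaks of chromosome 7 was −0.57.

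The Gcg peaks ran in both directions. Of 11 peaks, 3 were called higher in αTC1, 2 higher in βTC6 and 6 were not called. Those higher in αTC1 were the start-site peak, the peak at +9998 bp (chr2:62311270-62312154), just past the end of the gene, and the peak at +9203 bp, over its last exon. The peak at +9998 bp had values of 29.7, 24.7, 26.5, 30.0 and 26.4 in αTC1 and of 5.54, 3.49, 3.92, 3.85 and 2.44 in βTC6. Its log2 fold change was −2.58 (SE 0.16, limma adjusted p = 3.0e-11), the most negative of the set. The peak at +9203 bp stood at 7.05 ± 1.19 against 0.843 ± 0.458 (log2 fold change −2.15, SE 0.22).
The called peaks higher in βTC6 lay farther downstream, at +27022 bp (13.1 ± 2.78 against 1.96 ± 1.03, log2 fold change 2.29, SE 0.23) and at +27768 bp (5.80 ± 2.14 against 0.599 ± 0.128, 2.02, SE 0.23). The peak at +19530 bp stood at 13.7 ± 3.18 against 2.81 ± 0.971 and was just under the fold threshold. With quantile normalisation or a pseudocount of 5 no Gcg peak was called higher in βTC6 (log2 fold change 1.90 and 1.38 at +27022 bp), and with the latter only the start-site peak was called higher in αTC1. The call at +27768 bp was also lost without αTC1 replicate 5 or without βTC6 replicate 1, 3 or 4 (log2 fold change 1.92 to 1.98), and the peak at +19530 bp was called without αTC1 replicate 1 or 4 or βTC6 replicate 5 (2.01 to 2.09). These 3 peaks lie within the transcribed span of Gm13561, a gene on the opposite strand. They stand on the side of Dpp4, where 3 of its 4 peaks within 100 kb of Gcg were called higher in βTC6. The peak at −1445 bp, next to the start site, was open in both lines and its replicates overlapped (27.7 ± 6.63 in αTC1, 19.9 ± 3.10 in βTC6 and a log2 fold change of −0.44, SE 0.15). The remaining 4 peaks had log2 fold changes from −0.76 to 1.32, and 3 of them overlapped between the lines.

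**Figure D3:**
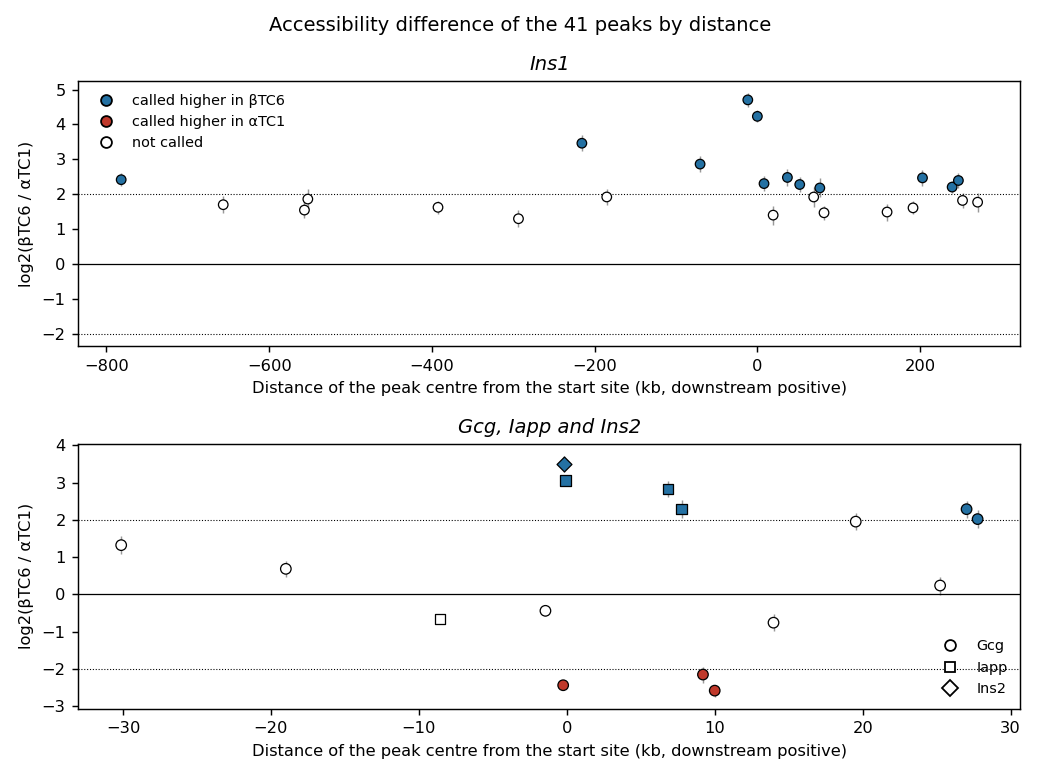
Accessibility difference (log2 of βTC6 over αTC1 from limma, with SE bars) of all 41 peaks against distance from the start site in kb, Ins1 above and Gcg, Iapp and Ins2 below, with dotted lines at the fold threshold of 2 in each direction. All 25 Ins1 peaks lie above 0, while the Gcg peaks within 10 kb that were called are negative and those beyond 25 kb that were called are positive.

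The 4 start-site peaks were called in every alternative tried, whereas calls of the lower peaks depended on how they were tested. In all, 18 member peaks were called higher in βTC6 and 3 higher in αTC1. With edgeR on the whole reads recovered from the values, these counts were 32 and 3 and all 25 Ins1 peaks were called, and 13794 and 5739 of all peaks were called. With a pseudocount of 5 they were 5 and 1. With quantile normalisation they were 11 and 3, and the share of all called peaks that were higher in βTC6 moved from 70.6% to 52.5%.

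The mixtures addressed whether the peaks follow the share of each line. The relation of each peak with the percentage of αTC1 cells over the 9 mixtures was measured by Pearson r with an exact 2-sided permutation test, adjusted over all 65053 peaks, of which 30.1% fell and 21.8% rose with an adjusted p under 0.05. Of the 41 peaks, 27 fell and 4 rose. Without the 10% and 90% mixtures, which leaves 7 libraries, these counts were 13 and 1.
The Ins1 start-site peak had values of 70.5, 52.5, 33.6, 40.2, 33.2, 19.4, 13.8, 11.1 and 5.69 from 10% to 90% αTC1 cells (r = −0.957, exact p = 5.0e-05, adjusted p = 0.00081; Spearman's rho = −0.983, exact p = 5.0e-05). Without the 10% and 90% mixtures r was −0.946.
The Ins2 peak had values of 20.4, 18.6, 16.0, 13.4, 12.6, 5.83, 4.93, 3.30 and 1.83, each below the one before. It had r = −0.985 and rho = −1 (exact p = 5.5e-06 for both, the smallest that 362880 orders allow, and adjusted p = 0.00038 for r). Over the 7 inner mixtures its r was −0.979.
The Iapp start-site peak ran from 48.0 at 10% to 6.10 at 90% (r = −0.974, exact p = 1.7e-05, adjusted p = 0.00052; rho = −0.983, exact p = 5.0e-05; r = −0.965 without the outermost mixtures).
The Gcg start-site peak rose with αTC1 cells, with values of 39.0, 49.7, 63.0, 73.5, 85.5, 105.6, 96.8, 108.3 and 139.4 (r = 0.975, exact p = 1.7e-05, adjusted p = 0.00052; rho = 0.983, exact p = 5.0e-05; r = 0.959 without the outermost mixtures). It already stood at 39.0 with 10% αTC1 cells, above the highest pure βTC6 replicate (32.2).

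Of the Ins1 peaks, 21 of 25 fell, and all 25 had a negative r (−0.982 to −0.513), as had 52.5% of all peaks. Without the outermost mixtures 9 Ins1 peaks fell at the same threshold. The peak at −11771 bp had r = −0.948 (exact p = 0.00025, adjusted p = 0.0018; rho = −0.917, exact p = 0.0013; r = −0.905 without the outermost mixtures). Of the Iapp peaks 3 fell and the peak at −8585 bp rose, from 65.8 at 10% to 112.0 at 90% αTC1 cells (r = 0.887, exact p = 0.00098, adjusted p = 0.0044; rho = 0.917, exact p = 0.0013). Without the outermost mixtures its r was 0.831 and the call was lost (adjusted p = 0.071 by the exact permutation test). Fewer samples were tested there, so the lost call cannot be laid to the outermost mixtures alone. Of the Gcg peaks 3 rose (−246, +9998 and +9203 bp), 2 fell (+19530 and +27022 bp) and 6 did neither at this threshold. The peak at +9998 bp rose from 7.13 to 28.9 (r = 0.904, exact p = 0.0012, adjusted p = 0.0050; rho = 0.933, exact p = 0.00075). Without the outermost mixtures 4 of the 5 Gcg calls were lost, those at +9998 bp (r = 0.807, adjusted p = 0.088 by the exact permutation test), +9203 bp (adjusted p = 0.14), +19530 bp (0.062) and +27022 bp (0.27), and the start-site peak was still called.
Set against a straight line between the pure lines (means of replicates 4 and 5), the Gcg start-site peak at equal parts stood at 85.5 where the line gives 89.7, the Iapp start-site peak at 26.6 against 25.6, the Ins1 start-site peak at 33.2 against 28.8 and the Ins2 peak at 12.6 against 13.4. The Ins2 peak was below its line in all 9 mixtures, with a mean gap of −2.64, and the pure βTC6 values behind that line were 31.8 and 19.8. Each mixture was a single library, so these gaps have no replicate error.

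**Figure D4:**
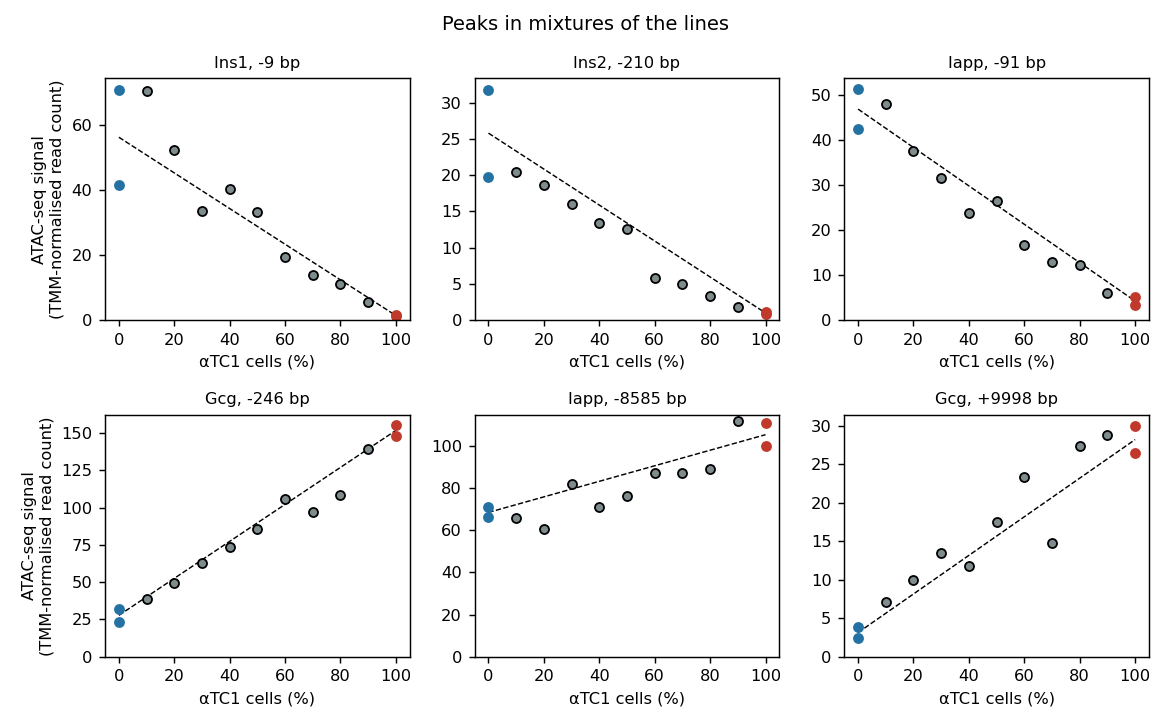
ATAC-seq signal (TMM-normalised read count, axes from 0) of 6 peaks in the 9 mixtures (grey) against the percentage of αTC1 cells, with pure βTC6 (blue) and αTC1 (red) replicates 4 and 5 at the ends and a dashed straight line between their means. The start-site peaks of Ins1, Ins2 and Iapp fall and that of Gcg rises across the mixtures, as do the Iapp peak at −8585 bp and the Gcg peak at +9998 bp.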

How the data were processed

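Levels were followed in 25 libraries: RNA-seq of αTC1 and βTC6 (n = 3 each) and ATAC-seq of both lines (n = 5 each) and 9 mixtures. The members and gene lists were chosen with earlier results of these data known.

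The deposited expected counts and FPKM values are the authors' output of Trim Galore 0.40, Bowtie2 2.23 and RSEM 1.2.12 on mm9. The deposited ATAC-seq signal is a TMM-normalised read count per consensus peak. The authors trimmed with Trimmomatic 0.32, aligned with BWA 0.7.9a, dropped duplicate reads (Picard, version 1.95), and MACS2 2.1.0 peaks of single libraries were merged with DiffBind 2.2.5. Versions follow the submitters' processing notes. Dividing by a library's lowest value gave whole reads for 100% of values (tolerance 0.01 reads). All columns of sample values were matched to a sample. The tables give no base-level coverage, and intervals and floors cover counting error only.

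Expected counts were rounded and tested with edgeR 4.0.16 (TMM, spike-ins left out at 0.436% to 0.971% of counts), for genes whose FPKM reached 1 in every replicate of αTC1 or of βTC6. An SE was taken as the size of the fold change over the root of F. ATAC-seq values were tested with limma 3.58.1 (trend) on log2(value + 1), because they are normalised, in R 4.3.3. DESeq2 1.42.0 was an alternative. RUVSeq, which the study used with the spike-ins, was replaced by spike-in scaling and by a spike-in factor as alternatives. Mixture p-values were adjusted over all peaks. This departs from the plan, which was to adjust over the member peaks alone. On simulated data with 200 changed features, all 108 genes (of 12195) and all 105 peaks (of 65053) with an absolute log2 change of 3 were recovered, and no unchanged feature was called. Changes had absolute log2 sizes of 3 or 4, were planted only in features above a minimum mean count, and had a single dispersion. Recovery of low features, or of changes near the threshold of 2, was not tested. Pairs of RNA-seq replicates differed by more than sampling noise (chi-square per gene 2.03 to 36.2), so none was merged.

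Genes were named by rule: the members and their peaks, genes starting within 100 kb, the 3 most similar profiles, the neighbours in rank, and up to 4 genes per list and direction, apart from list members named because they were not called, were below the filter or define a cell type. Neighbouring peaks and marker ratios were added after values were seen. Sequences were read from mm9 (NCBIM37) with GENCODE vM1, and promoter shares from RefSeq. No RefSeq promoter entry was used for Ins2. Some list members that the rule names are not reported here. Alternatives covered tests, scaling, filters, pseudocounts, replicate groups and leaving out each library. Python 3.11.15 with numpy 2.4.6, pandas 2.3.3, Biopython 1.88 and matplotlib 3.10.9 was used.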

Additional observations from a re-analysis of the deposited data

Results flagged for a closer look

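Of 82 groups of 5 pure ATAC-seq libraries (41 peaks in each line), 2 held a library far from the other 4, where chance flags about 1 in 20. The Ins1 start-site peak stood at 70.9 in βTC6 replicate 5, against 41.7 to 49.2 in the other 4. The Gcg peak at +27022 bp stood at 3.78 (27 reads) in αTC1 replicate 1, against 1.36 to 1.65 in the others. Both peaks were called with these libraries left out.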

How the results depend on the processing

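All 60 alternative fits of the 4 hormone genes kept their direction and call, as did those of the 4 start-site peaks. Leaving out each library in turn, the log2 fold change ranged from 18.45 to 18.74 for Ins1, 16.23 to 17.64 for Ins2, 13.77 to 14.68 for Iapp and −5.92 to −5.58 for Gcg, and the start-site peaks ranged from 4.11 to 4.32, 3.41 to 3.65, 2.97 to 3.11 and −2.49 to −2.38. Other settings moved the sizes further, to 10.95 to 18.74 for Ins1, 14.45 to 16.78 for Ins2, 12.73 to 14.40 for Iapp and −5.84 to −5.73 for Gcg, and for the peaks to 3.03 to 4.83, 2.26 to 4.21, 2.38 to 3.30 and −2.48 to −2.08. The Ins1 value is set by the prior count or pseudocount, so its range shows no stability. Counts of called genes (1245 higher in βTC6, 498 in αTC1) became 2509 and 1020 without the FPKM filter, where more genes were tested, and 702 and 277 with limma on log2(FPKM + 1). Counts of called peaks (8409 and 3502) became 13794 and 5739 with edgeR on recovered reads and 1668 and 819 with a pseudocount of 5, and 5555 were higher in βTC6 with quantile normalisation. Member peaks called (18 and 3) became 32 higher in βTC6 with edgeR, 5 and 1 with a pseudocount of 5 and 11 higher in βTC6 with quantile normalisation, and 17 to 21 when a library was left out. Member peaks that fell or rose in the mixtures (27 and 4) became 13 and 1 without the outermost mixtures, where fewer samples were tested. Of peaks that were not called, the Gcg peak at +25233 bp had a log2 fold change of −0.32 with quantile normalisation instead of 0.24, the relation of the Gcg peak at −18992 bp was −0.29 with the pure libraries added instead of 0.178, and that of the Gcg peak at −30122 bp was 0.27 without the outermost mixtures instead of −0.446. The causes were not tested. Replicate numbers did not pair the libraries: deviations of same-numbered libraries correlated at −0.047 to 0.026 in RNA-seq and −0.0019 to 0.069 in ATAC-seq. With the number as a replicate block, 1241 and 503 genes and 8409 and 3502 peaks were called, and the hormone genes kept their calls. Peaks below about 5 reads rest on counts near the lowest value and their folds are the least certain.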
